A study of Arabidopsis thaliana with 66 samples.

Results

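In flowers of Arabidopsis thaliana, 25 probe sets lost most of their signal in the mutants ap3-6 and ufo-1 and kept it in ag-12. They were chosen from the mean signal of groups of 3 arrays. The mean had to be at least 50 in wild-type flowers of stage 12, at most 0.5 times that in ap3-6 and in ufo-1, and at least 0.9 times that in ag-12. Of 22746 probe sets other than controls, 10984 reached a wild-type mean of 50. Of these, 838 met the ap3-6 limit, 580 met the ufo-1 limit as well, and 26 met all limits. JMT, the jasmonate methyltransferase gene, met the limits but was left out by name, which gives the 25 members. BSMT1, a methyltransferase gene for benzoate and salicylate that was also to be left out, had an ag-12 ratio of 0.354 and did not meet them. Of the members, 16 pair with 1 gene in the annotation used and 9 pair with none and are given by their probe set IDs. Among the 580 probe sets with low signal in both ap3-6 and ufo-1, 533 had an ag-12 mean of at most 0.5 times the wild type.

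Floral organs form in concentric whorls of sepals, petals, stamens and carpels. The B-function genes APETALA3 and PISTILLATA specify petals and stamens, and UFO helps LEAFY to switch APETALA3 on. The C-function gene AGAMOUS specifies stamens and carpels, and without it the flower makes sepals and petals over and over. Flowers of ap3 mutants thus lack petals and stamens, and flowers of ag mutants keep their petals. The 16 named members include 4 genes of GDSL-type esterase/lipases, 2 of pectate lyases and 1 of the invertase and pectin methylesterase inhibitor superfamily. Genes of these families were not counted over the array, so whether these numbers are unusual was not tested. GDSL-type esterase/lipases include the enzymes that build cutin, the polyester of the cuticle, and pectate lyases and the inhibitors of pectin methylesterases act on pectin in growing walls.

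The data are 66 arrays in 22 groups of 3, of the one-colour ATH1 type, in which a probe set measures the RNA of about 1 gene as a fluorescence signal. The mutant groups, all in the Col-0 background, were ap3-6 (flowers lacking petals and stamens), ufo-1 (filament-like organs in the middle whorls), ag-12 (sepals and petals in place of stamens and carpels), lfy-12 (leaf-like structures with some shoot traits), ap1-15 (no sepals, petals replaced by secondary flowers), ap2-6 (no sepals or petals, carpel-like features on sepals) and clv3-7 (more organs, an enlarged meristem and many carpels). They were taken at the equivalent of stage 12, the last bud stage before the petals show. The wild-type groups, also Col-0, comprised the 4 floral organs dissected at stage 12 and again at stage 15, intact flowers of stages 9, 10/11, 12 and 15, stage 15 pedicels, mature pollen and flowers of unstated stage. That last group grew in long days at 20 °C, the others in continuous light at 23 °C. No label says that the arrays of a group came from separate plants or harvests, so p-values describe the spread between these samples. Each fold change is on the log2(signal + 11.31) scale, where 11.31 is 0.5 times the floor of 22.61, the 40th percentile of all values. "Called" means a Benjamini-Hochberg adjusted p below 0.05 over 17646 probe sets and a change of at least 2-fold in limma. All 25 members passed the filter on dim probe sets, for which every array of at least 1 group had to lie above the floor.

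The trimmed mean of the arrays lay between 100.007 and 100.022, so the deposited values carry a common scaling. No pair of arrays held identical values, and arrays of a group correlated at 0.958907 or more, at 0.990186 or more in the 4 groups of the selection and in stage 12 petals. Among the mutated genes, UFO and CLV3 alone pair with a probe set of 1 gene, and both were too dim to be tested, so the mutated genes could not serve to check the labels. Marker lists could. The 6 measured pollen genes summed, from the lowest to the highest array, to 8.51, 15.8 and 24.2 in ag-12 flowers and to 18.0, 29.3 and 30.8 in ap3-6 flowers, against 1994, 2038 and 2105 in wild-type flowers of stage 12. All 6 were below the floor in ag-12 and ap3-6. The 5 measured carpel and ovule genes summed to 126, 130.0 and 140 in ag-12, against 1542, 1633 and 1648 in the wild type. The same carpel sum was 2722, 2727 and 2849 in ap3-6. In ufo-1 all 6 pollen means lay below the wild type, but AT5G45880 had 161, against 1278 in the wild type and 12.9 in ap3-6. Of the tapetum genes, ATA27 had a mean of 732 in ufo-1, against 929 in the wild type and 0.447 in ap3-6. AMS had 25.9 in ufo-1, against 39.9 in the wild type, and SHT had 76.4, against 34.9. In stage 12 petals the 4 measured tapetum genes were all below the floor and the pollen sum was 640, 713 and 759, against 8701, 9182 and 9830 in stage 12 stamens. The part of pollen carried on the petals in the members' petal signal was not tested.

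In the 4 groups that chose the members, values are a description. The ratio of the ap3-6 mean to the wild-type mean ran over the members from 0.0600 to 0.471 with a median of 0.282, that of ufo-1 from 0.142 to 0.497 with a median of 0.430, and that of ag-12 from 0.967 to 2.04 with a median of 1.46. AT1G32780 and AT5G02580 lay below the floor in all ap3-6 arrays, so their ap3-6 ratios, the 0.0600 of AT1G32780 included, rest on values below the floor. All ap3-6 arrays lay below all wild-type arrays for 25 members, in the groups the selection used, and for 18.9% of all probe sets. The same held for 25 members in ufo-1 (16.1% of all probe sets). In ag-12, all arrays lay above all wild-type arrays for 20 members (21.9% of all probe sets), and 10 members had a ratio of at least 1.5. In the limma fit, 24 members were called lower in ap3-6 (6.21% of probe sets tested, and 1.11% higher), 22 lower in ufo-1 (4.24%, and 0.844% higher) and 1 higher in ag-12 (1.05%, and 6.02% lower), from which nothing is read because the selection used these groups. In a whole flower, fewer petal cells and less RNA per petal cell cannot be told apart.

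**Figure D1:**
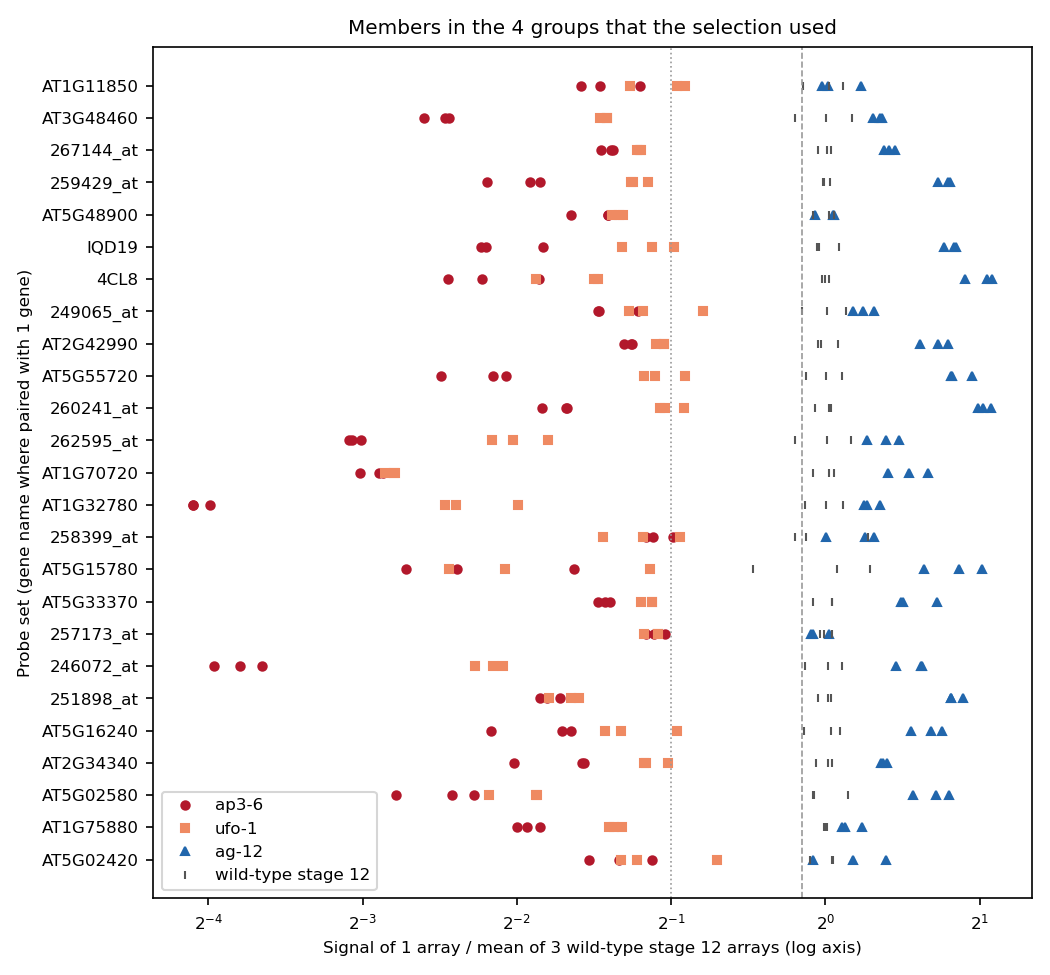
Signal of each array divided by the mean of the 3 wild-type stage 12 arrays (log axis) for the 25 members, in ap3-6, ufo-1, ag-12 and the wild type. The dotted line marks a ratio of 0.5 and the dashed line 0.9, the limits of the selection. In ap3-6 the points of 246072_at and 262595_at are among the lowest, and those of AT1G32780 are signals below the floor.

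The members differed in how much signal remained in ap3-6. AT1G32780, an alcohol dehydrogenase-like gene, gave 8.05, 8.04 and 8.68 in ap3-6, 34.6, 26.2 and 24.9 in ufo-1 and 164, 176 and 166 in ag-12, against 138, 149 and 126 in the wild type. All 3 ap3-6 arrays lay below the floor, and ufo-1 stood between ap3-6 and the wild type with no overlap. Probe set 246072_at gave 78.5, 71.0 and 63.2 in ap3-6, 221, 205 and 231 in ufo-1 and 1518, 1354 and 1518 in ag-12, against 1061, 998 and 898 in the wild type, the same order. AT5G33370, a GDSL-type lipase of the cutin synthase group, gave 853, 828 and 872 in ap3-6, 1055, 1056 and 1002 in ufo-1 and 3224, 3794 and 3261 in ag-12, against 2171, 2362 and 2362 in the wild type. Its ap3-6 mean was 0.370 times the wild type and its ap3-6 arrays all lay above the floor, without overlap with ufo-1. The ap3-6 mean was below the ufo-1 mean for 23 of the 25 members, with a median ratio of ap3-6 to ufo-1 of 0.702, and all ap3-6 arrays lay below all ufo-1 arrays for 17 (18.1% of all probe sets).

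In ag-12 the highest ratios were those of 260241_at at 2.04 and 4CL8 at 2.02. 4CL8, a 4-coumarate-CoA ligase-like gene, gave 231, 225 and 204 in ag-12, 30.2, 20.1 and 23.4 in ap3-6 and 29.7, 39.2 and 38.6 in ufo-1, against 109, 108 and 111 in the wild type. Its ag-12 arrays all lay above the wild type and its ap3-6 arrays on both sides of the floor. Near the limits, 257173_at had an ag-12 ratio of 0.967 and AT5G48900 of 1.01, while AT5G11420 (0.835) and AT2G39130 (0.824) fell just outside. For ufo-1, 260241_at (0.497) and AT1G11850 (0.486) lay just inside and AT2G04570 (0.503) and AT4G13210 (0.517) just outside. For ap3-6, 258399_at (0.471) and 257173_at (0.465) were inside and 264186_at (0.551) and 258962_at (0.564) outside. The wild-type means nearest the limit were those of 249065_at (62.3) and AT5G02420 (64.4) inside, and of AT4G28160 (40.9) and AT4G27790 (40.1) outside. The number of probe sets that missed the limit alone was 58 for the wild-type mean, 12 for ap3-6, 69 for ufo-1 and 553 for ag-12.

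Dissected wild-type organs, which the selection did not use, gave most members their highest signal in petals. At stage 12, 24 of the 25 had their highest mean in petals among the 4 floral organs, which held for 18.8% of all probe sets, and 257173_at had it in stamens. All 25 were called higher in petals than in carpels (6.35% of probe sets tested), 24 higher than in sepals (8.25%) and 17 higher than in stamens (16.6%). The exception for sepals was AT1G75880. The median log2 difference of the members was 3.81 for petals minus carpels (-0.06 over all probe sets tested), 3.12 for petals minus sepals (0.10) and 1.82 for petals minus stamens (0.18). Against each of the other 3 organs at once, 16 members were called higher in petals (1.67%), and 0 in stamens (9.58%), 0 in sepals (6.79%) and 0 in carpels (5.07%). These petal samples also gave higher signals than whole flowers: the petal mean was 1.58 to 6.40 times the wild-type flower mean (median 3.28), with no overlap of arrays for 25 members (21.4% of all probe sets). They were above ag-12 flowers without overlap for 24 members (22.8% of all probe sets), the ratio of ag-12 to petals having a median of 0.447.

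**Figure D2:**
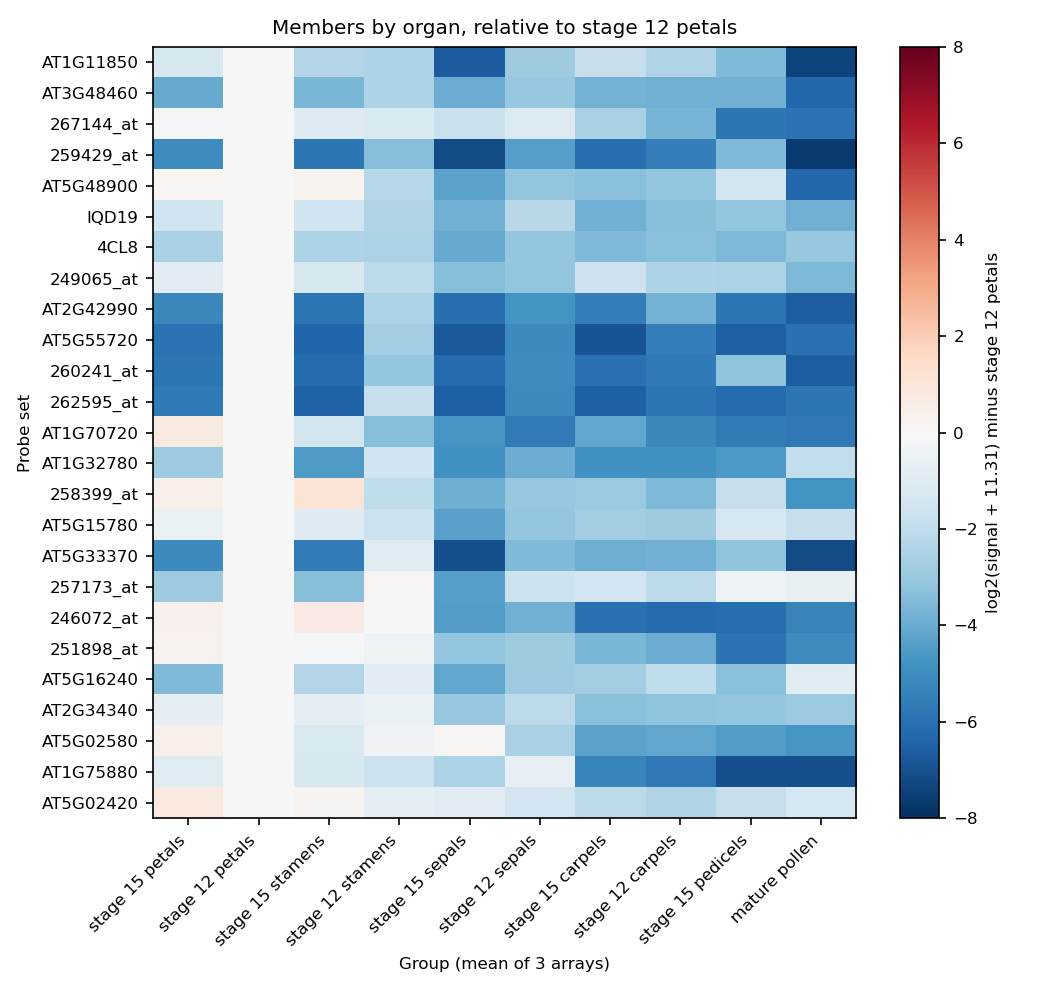
Mean of 3 arrays per group as log2(signal + 11.31), minus the mean of stage 12 petals, for the 25 members (rows) in organs, pedicels and pollen (columns). Blue is below stage 12 petals and red above. Rows run from members called highest in petals only, through those also called in stamens, to AT1G75880 and AT5G02420, which are in neither class.

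A second pattern joined petals and stamens. For 15 members both petals and stamens were called above both sepals and carpels, against 0.567% of probe sets tested. Of these, 8 were also called higher in petals than in stamens, 7 were not, 8 more members were called in petals alone, and 2, AT1G75880 and AT5G02420, were in neither class. Stamens were called above sepals for 16 members (14.4%) and above carpels for 20 (14.6%), and sepals above carpels for 8 (13.2%). AT1G75880 was the 1 member called lower in stamens than in sepals (18.4%).

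Among the 4 GDSL-type lipase genes, petals stood highest and the second organ differed. AT5G33370 gave 3263, 3562 and 4102 in stage 12 petals, 1857, 1856 and 1936 in stamens, 252, 324 and 324 in sepals and 259.6, 239 and 235 in carpels. Its petal arrays all lay above its stamen arrays, but the difference stayed under 2-fold (log2 difference 0.94, SE 0.13, adjusted p = 8.6e-09). AT3G48460 gave 2044, 2059 and 2120.0 in petals, 404, 353 and 332 in stamens, 255, 251 and 230.0 in sepals and 127, 132 and 144 in carpels, and was called against each (2.48 on the log2 scale against stamens, SE 0.07, adjusted p = 1.19e-36). AT2G42990 gave 1843, 1882 and 1884 in petals, 298, 319 and 306 in stamens, 59.6, 51.9 and 62.5 in sepals and 122, 125 and 122 in carpels, so its stamen arrays exceeded sepals and carpels as well. AT1G75880 stood apart from these: it gave 1550.1, 1704 and 1699 in petals, 1102, 1045 and 1005 in sepals, 487, 468 and 507 in stamens and a level below the floor in all carpel arrays. Its petals exceeded its sepals without overlap, by less than 2-fold (log2 difference 0.65, SE 0.07, adjusted p = 1.29e-12), and exceeded carpels at least 73.0-fold.

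At stage 12 the genes of pectin metabolism had their highest signal in petals. The pectate lyase gene AT5G55720 gave 1407, 1431 and 1362 in petals, 200.3, 197 and 178 in stamens and 26.8, 28.2 and 33.5 in sepals, and lay below the floor in carpels. It was called higher in petals against each organ, by 2.80 (log2) over stamens and at least 61.9-fold over carpels. The second pectate lyase gene, AT5G48900, gave 1913, 2033 and 2151 in petals, 418, 417 and 397 in stamens, 205, 239 and 223 in sepals and 236, 211 and 243 in carpels, and was called against all 3. AT1G70720, of the invertase and pectin methylesterase inhibitor superfamily, gave 1119, 1139 and 1099 in petals, 77.3, 97.6 and 113 in stamens and 19.4, 23.4 and 17.0 in carpels, and was below the floor in sepals. Petals exceeded sepals at least 49.5-fold and stamens by 3.41 on the log2 scale (SE 0.21, adjusted p = 5.37e-22).

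Among the other named members, 5 were called highest in petals, with 1.61 to 2.55 (log2) over stamens. They were 4CL8, AT1G32780, AT1G11850, AT5G15780 and IQD19, which encodes a calmodulin-binding protein with IQ domains. IQD19 gave 427, 427 and 404 in petals, 85.5, 72.2 and 87.6 in sepals, 73.3, 61.5 and 71.1 in stamens and 31.3, 30.1 and 24.7 in carpels. Its sepal and stamen arrays overlapped. AT1G11850 gave 2202, 1918 and 2495 in petals, against 382, 427 and 428 in carpels, 395, 362 and 420.3 in stamens and 279, 277 and 352 in sepals, and AT5G15780 gave 210.3, 272 and 306 in petals against 68.1, 88.6 and 55.9 in stamens. Both were called against each other organ, AT5G15780 with the largest SE of the members (log2 difference 1.74, SE 0.24, adjusted p = 6.45e-09).

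Other members exceeded their stamen level in petals by less than 2-fold. AT5G16240, a stearoyl-ACP desaturase gene of fatty acid synthesis, gave 536, 523 and 417 in petals and 277, 253 and 284 in stamens (log2 difference 0.83, SE 0.13, adjusted p = 8.44e-08), with 102, 122 and 105 in carpels and 61.0, 54.9 and 49.5 in sepals. AT5G02580 gave 359, 382 and 323 in petals and 283, 279.6 and 294 in stamens (log2 difference 0.30, SE 0.14, adjusted p = 0.0437) and lay below the floor in carpels. AT2G34340 gave 301, 318 and 292 in petals and 227, 196 and 198 in stamens (log2 difference 0.53, SE 0.13, adjusted p = 0.000321). In these 3, petal arrays lay above stamen arrays without overlap, by less than 2-fold. AT5G02420, of the SIAMESE-related family of inhibitors of cyclin-dependent kinases, gave 218, 203 and 190.2 in petals, 118, 118 and 121 in stamens, 65.7, 55.7 and 66.0 in sepals and 23.0, 33.7 and 30.9 in carpels. It was called in petals over sepals and carpels, and not over stamens.

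The 9 members without a named gene fell into the same 2 patterns. Probe sets 259429_at, 260241_at, 262595_at, 258399_at, 267144_at and 249065_at were called highest in petals. Of these, 259429_at was furthest above its second organ, at 2423, 2713 and 2605 in petals, against 209.8, 220.0 and 260.0 in stamens (log2 difference 3.43, SE 0.10, adjusted p = 1.38e-36). Probe sets 246072_at, 251898_at and 257173_at had petals and stamens both above the other organs. For 246072_at the arrays were 1694, 1572 and 1704 in petals and 1396, 1520.2 and 1845 in stamens, which overlap (log2 difference 0.07, SE 0.12, adjusted p = 0.6), with 119, 96.8 and 97.3 in sepals and all carpel arrays below the floor. For 257173_at they were 3227, 3388 and 3437 in petals and 3313, 3799.6 and 3608 in stamens, which also overlap.

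Between stages 12 and 15, when the flower opens and is pollinated, many members had less signal in petals. In petals 13 members were called lower at stage 15 (13.7% of probe sets tested) and 0 higher (11.6%; 6 at an unadjusted p below 0.05 in limma), with a median log2 difference of -1.28 for the members and -0.12 over all probe sets tested. At stage 15, 22 members still lay above the floor in all petal arrays and 3 lay below it in all. In stamens 10 were lower (12%) and 3 higher (12%), with medians of 0.11 and 0.01. The same 10 were lower in both organs. In sepals 13 were lower (9.91%) and 1 higher (6.94%), and in carpels 2 were lower (1.21%) and 2 higher (3.33%).

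The 7 largest decreases in petals included 3 lipase genes and a pectate lyase gene. AT5G33370 gave 95.7, 92.2 and 101 in stage 15 petals, against 3263, 3562 and 4102 in stage 12 petals (log2 difference -5.08, SE 0.13, adjusted p = 8.37e-39). AT2G42990 gave 61.9, 27.2 and 38.2, against 1843, 1882 and 1884 (log2 difference -5.18, SE 0.12, adjusted p = 1.08e-40), and AT3G48460 122, 116 and 107, against 2044, 2059 and 2120.0 at stage 12. For these 3 lipase genes the stages did not overlap. AT5G55720 was below the floor in all stage 15 petal arrays and at least 61.9-fold lower than at stage 12. The same held for 260241_at (at least 58.3-fold lower) and 262595_at (at least 52.7-fold lower). The fourth lipase, AT1G75880, gave 868, 837 and 839 in stage 15 petals, against 1550.1, 1704 and 1699 at stage 12. That is lower without overlap, by less than 2-fold (log2 difference -0.95, SE 0.07, adjusted p = 4.85e-19).

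Other members were not lower in open petals. AT1G70720 gave 2002, 2104 and 1525 in stage 15 petals, against 1119, 1139 and 1099 in stage 12 petals (log2 difference 0.73, SE 0.21, adjusted p = 0.00156). AT5G48900 gave 2346, 2449 and 2049.6, against 1913, 2033 and 2151 at stage 12, with overlapping arrays. AT5G02420 gave 374, 364 and 332, against 218, 203 and 190.2 at stage 12 (log2 difference 0.78, SE 0.13, adjusted p = 2.78e-07). These 3 differences are under 2-fold and were not called. In stamens the picture differed for both cell wall genes: AT1G70720 gave 392, 410.1 and 377 at stage 15, against 77.3, 97.6 and 113 at stage 12 (log2 difference 1.93, SE 0.21, adjusted p = 2.88e-12). AT5G48900 gave 2394, 2464 and 2631 in stage 15 stamens, against 418, 417 and 397 at stage 12 (log2 difference 2.57, SE 0.10, adjusted p = 3.72e-30), and 258399_at gave 1329.9, 1366 and 1351, against 122, 168 and 153. These 3 are the members called higher in stage 15 stamens.

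**Figure D3:**
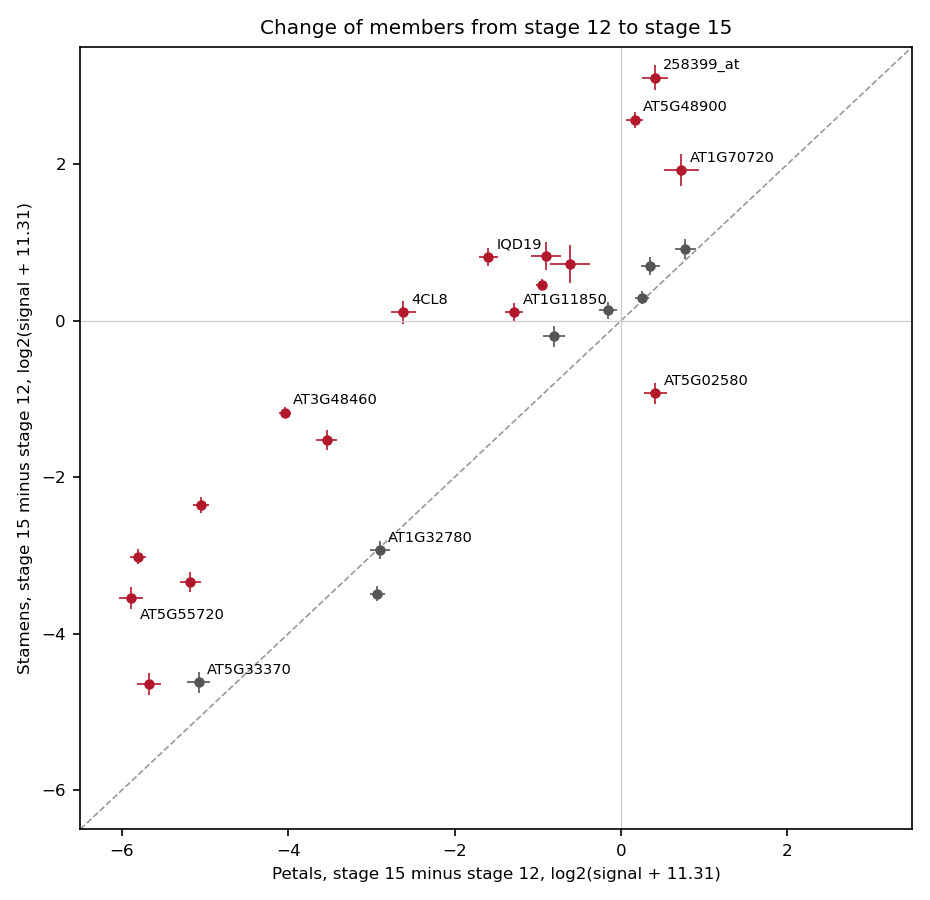
Log2 difference of stage 15 minus stage 12 in petals (x axis) and in stamens (y axis) for the 25 members, on the log2(signal + 11.31) scale, with bars of 1 SE. Red points are the 17 members whose petal and stamen changes differ in a test of the difference, and the dashed line marks equal change. Of these 17, only AT5G02580 lies below the line.

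The difference between the petal and the stamen change was tested directly. It passed at 2-fold or more for 17 members, against 23.5% of all probe sets tested. In 16 of the 17 the petal change was the lower of the pair, and AT5G02580 was the exception. The 23.5% holds for either direction, and the share of all probe sets in each direction was not counted. Most members had their highest stage 12 signal in petals, and the part of this starting level in the split was not tested. Among members above the floor at stage 15, AT3G48460 had the largest such difference (-2.87, SE 0.10, adjusted p = 2.25e-31), and 4CL8 (-2.73) and 258399_at (-2.70) had others. For AT5G55720, 260241_at and 262595_at both organs lay below the floor at stage 15, so the size of their differences rests on values below the floor. For 4CL8 the petals gave 72.1, 54.6 and 64.4 at stage 15, against 416, 468 and 460.1 at stage 12, while the stamens gave 70.3, 71.8 and 77.8, against 60.7, 68.8 and 72.6. AT5G02580 gave 487, 445 and 494 in stage 15 petals, against 359, 382 and 323 at stage 12, and 146, 148 and 140.4 in stage 15 stamens, against 283, 279.6 and 294 at stage 12. Neither change of AT5G02580 reached 2-fold, and the difference between them did (1.34, SE 0.19, adjusted p = 2.14e-08). In sepals it was the 1 member called higher at stage 15, at 414, 353 and 355, against 49.2, 53.6 and 48.2 at stage 12 (log2 difference 2.64, SE 0.14, adjusted p = 1.16e-24).

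At stage 15 petals were still the organ with the highest mean for 16 members (15.8% of all probe sets), stamens for 7 (21.9%) and carpels for 2 (38.5%). For 3 of the 16, AT5G55720, 260241_at and 262595_at, the petal arrays lay below the floor. At stage 15, petals were called above stamens for 4 members (3.89% of probe sets tested), above sepals for 18 (8.86%) and above carpels for 13 (12.8%). Stamens were called above sepals for 17 (12.2%) and above carpels for 13 (15%), and sepals above carpels for 4 (14.9%). In the other direction, 7 members were called lower in sepals than in carpels (22.4%). AT5G33370 and 257173_at were called lower than carpels in petals (2 members, 20.8%) and in stamens (2 members, 23.8%). AT5G16240 was the 1 member called lower in petals than in stamens (7.1%), AT5G02580 the 1 called lower in stamens than in sepals (11.5%), and 0 were called lower in petals than in sepals (8.72%; 0 at an unadjusted p below 0.05 in limma). Against each other floral organ, only AT1G70720 and AT1G32780 were called higher in stage 15 petals, 2 members against 1.29% of probe sets tested, while 10 members were called higher in both petals and stamens than in both sepals and carpels (1.92%). The count of 2 becomes 4 without a pseudocount or with quantile normalization. No member was called highest in stage 15 stamens (4.89%) or sepals (5.21%), and 2, AT5G33370 and 257173_at, were called highest in stage 15 carpels (14.5%). AT5G33370 gave 229, 218 and 243 in stage 15 carpels, against 95.7, 92.2 and 101 in petals and 66.1, 66.3 and 64.2 in stamens, with no overlap. AT1G32780 gave 66.4, 65.7 and 70.8 in stage 15 petals, while its arrays from the 3 other organs all lay below the floor.

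In whole wild-type flowers the members reached their highest mean at stage 9 in 2 cases, at stage 10/11 in 2, at stage 12 in 14 and at stage 15 in 7. The comparisons with stage 12 use the wild-type arrays that also chose the members. At stage 10/11 against stage 9, 1 member was called higher (2.01% of probe sets tested), AT5G02580, and 0 lower (1.14%). At an unadjusted p below 0.05 in limma, 12 were higher and 3 lower. The median log2 difference was 0.22 for the members and -0.02 over all probe sets tested. At stage 12 against stage 10/11, 8 were called higher (4.9%) and 0 lower (1.37%), and the 8 become 5 with a pseudocount equal to the floor. At stage 15 against stage 12, 15 were called lower (4.69%) and 3 higher (7.54%).

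**Figure D4:**
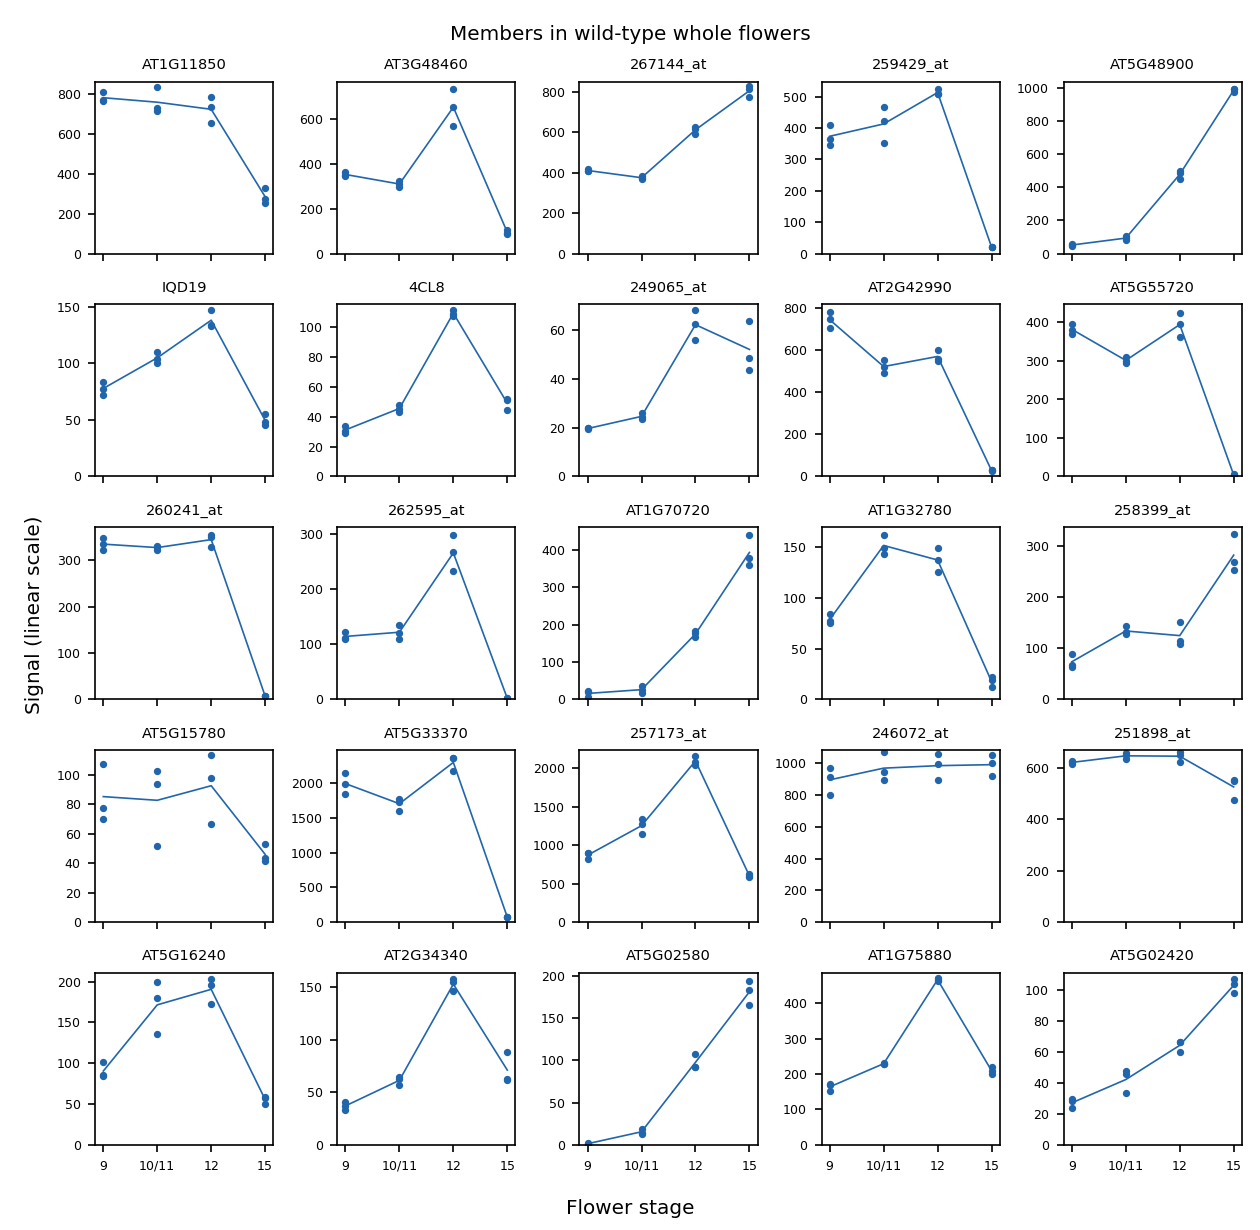
Signal (linear scale, starting at 0) of each array of wild-type whole flowers at stages 9, 10/11, 12 and 15 for the 25 members, with a line through the means of 3 arrays. AT1G70720, AT5G48900 and AT5G02580 are low at stage 9, while AT2G42990, AT5G55720 and 260241_at are high from stage 9 to stage 12 and low at stage 15.

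Some members were already at their flower level at stage 9. AT2G42990 gave 779, 748 and 703 at stage 9, 553, 492 and 519 at stage 10/11, 549, 601 and 557 at stage 12 and 30.5, 25.0 and 28.4 at stage 15. AT5G55720 gave 396, 380.1 and 369.7 at stage 9, 295, 310.1 and 299 at stage 10/11 and 361, 396 and 426 at stage 12, and lay below the floor at stage 15 (at least 17.4-fold lower than at stage 12). The fall from stage 12 to 15 was also large for AT5G33370, at 67.2, 72.4 and 74.6 in stage 15 flowers, against 2171, 2362 and 2362 at stage 12 (log2 difference -4.80, SE 0.13, adjusted p = 7.04e-37). At stage 9 AT5G33370 gave 2149, 1987 and 1845, so for these 3 genes every array of stage 9 lay above every array of stage 15.

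Others appeared late. AT1G70720 was below the floor in all stage 9 arrays, gave 35.8, 24.6 and 16.7 at stage 10/11, 177, 182 and 165 at stage 12 and 379, 439 and 361 at stage 15, and was called higher in both of the last steps (2.36 and 1.12 on the log2 scale). AT5G48900 gave 58.3, 49.4 and 47.4 at stage 9, 95.7, 81.0 and 104 at stage 10/11, 451, 486 and 497 at stage 12 and 992, 974 and 990.5 at stage 15, with no overlap between any 2 stages. AT5G02580 lay below the floor at stages 9 and 10/11 and gave 92.2, 108 and 92.5 at stage 12 and 166, 194 and 183 at stage 15. The step from 10/11 to 12 was at least 4.31-fold, and the call between stages 9 and 10/11 rests on values below the floor.

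Among the 4 mutants outside the selection, members were called lower in lfy-12, ap1-15 and ap2-6, and none was called in clv3-7. Each is compared with the wild-type stage 12 arrays that also chose the members, so the comparisons share their controls with each other and with the selection. In lfy-12, 17 members were called lower (7.35% of probe sets tested) with a median log2 difference of -1.39, against 0.08 over all probe sets tested. In ap1-15, 20 were lower (3.51%), with medians of -1.43 and 0.07, and in ap2-6, 21 (4.97%), with medians of -1.69 and 0.06. In clv3-7, 0 were lower (0.272%) and 0 higher (0.425%), with medians of -0.16 and 0.02. No member was called higher in lfy-12 (2.45%), ap1-15 (2.06%) or ap2-6 (1.46%). The clv3-7 means ran from 0.599 to 1.33 times the wild type. In limma, 7 members were lower in clv3-7 at an adjusted p below 0.05 without reaching 2-fold, and 10 were lower and 1 higher at an unadjusted p below 0.05. AT5G55720 had the largest of these decreases, at 236, 248 and 225 in clv3-7, against 361, 396 and 426 in the wild type (log2 difference -0.71, SE 0.14, adjusted p = 0.000351).

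**Figure D5:**
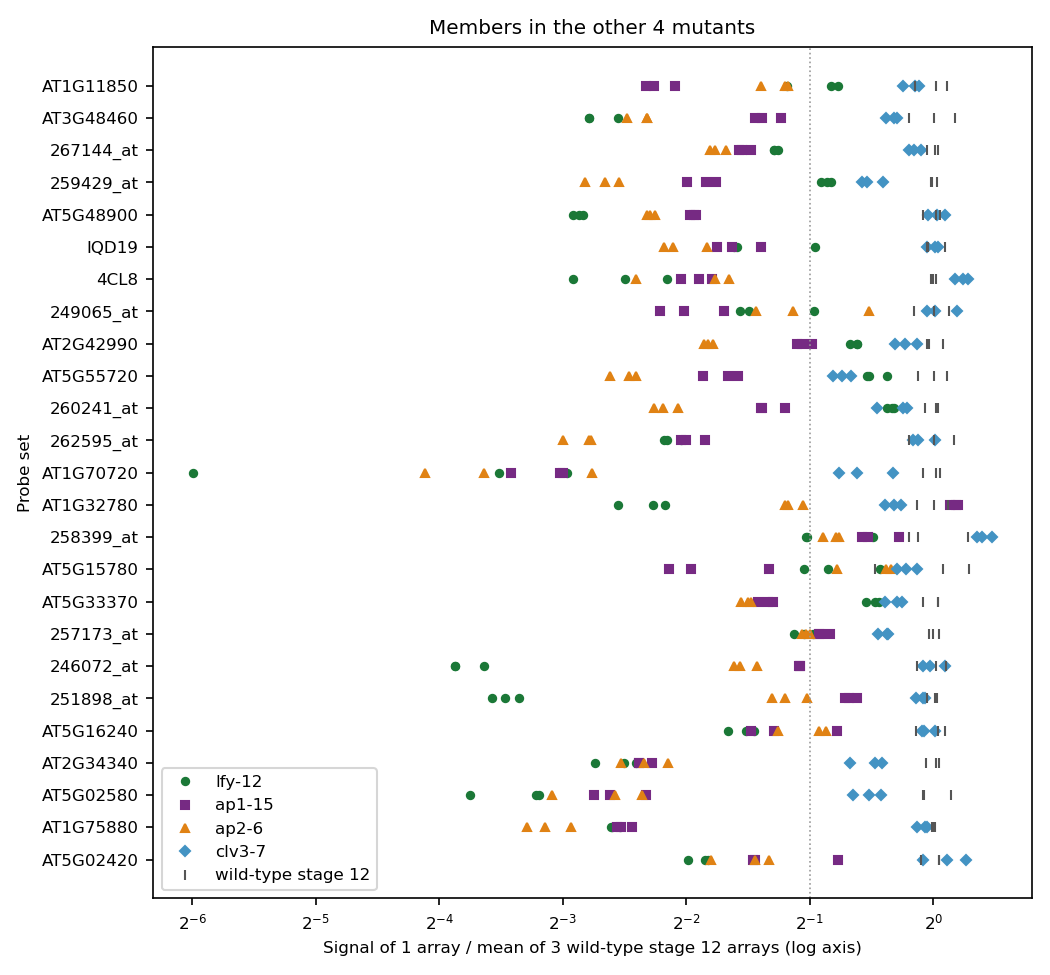
Signal of each array divided by the mean of the 3 wild-type stage 12 arrays (log axis) for the 25 members in lfy-12, ap1-15, ap2-6, clv3-7 and the wild type. The dotted line marks 0.5. The clv3-7 means lie between 0.599 and 1.33, and the ap1-15 points of AT1G32780 lie above the wild type.

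Summed pollen markers were lower than the wild type in lfy-12, ap1-15 and ap2-6 and higher in clv3-7. The 6 genes summed to 17.4, 18.5 and 19.3 in lfy-12, 1128, 1137 and 1178 in ap1-15, 616, 639 and 679 in ap2-6 and 2459, 2582 and 2604 in clv3-7, against 1994, 2038 and 2105 in the wild type. All 4 measured tapetum genes had higher means in ap1-15 and ap2-6 than in the wild type. ATA27 had 2017 and 1290, against 929, and AMS 171 and 88.3, against 39.9. SHT had 449 and 189, against 34.9, and AT5G07230 had 441 and 360, against 1.62, which is below the floor. In lfy-12 the ATA27 mean was lower, at 126, and the other tapetum means were higher. In clv3-7 all were higher. The part of any difference in stamens in the members' change was not tested.

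In lfy-12, 246072_at and 251898_at had the largest log2 differences among members still above the floor. Probe set 246072_at gave 79.2, 67.3 and 67.3 in lfy-12, against 1061, 998 and 898 in the wild type (log2 difference -3.59, SE 0.12, adjusted p = 3.91e-34), and 251898_at gave 58.2, 54.2 and 63.3, against 625, 653 and 661 (log2 difference -3.24, SE 0.08, adjusted p = 3.51e-39). Of the named genes, AT5G48900 gave 67.0, 65.3 and 63.4 in lfy-12, against 451, 486 and 497 in the wild type (log2 difference -2.68, SE 0.10, adjusted p = 1.48e-30), and AT1G70720 was below the floor, at least 7.73-fold lower. The 8 members not called lower included AT5G33370, at 1691, 1655 and 1577 in lfy-12, against 2171, 2362 and 2362 in the wild type (log2 difference -0.48, SE 0.13, adjusted p = 0.00192). AT5G55720 gave 303, 272 and 274, against 361, 396 and 426 in the wild type (log2 difference -0.46, SE 0.14, adjusted p = 0.00612), lower without overlap and by less than 2-fold. The others were AT1G11850, AT2G42990, 259429_at, 260241_at, 258399_at and AT5G15780, with log2 differences of -0.90 to -0.33.

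In ap1-15 and ap2-6 the lipase and pectate lyase genes were among those called lower. AT1G75880 had the largest log2 difference in ap2-6, at 47.5, 61.0 and 52.7 in ap2-6, against 462, 466 and 469.5 in the wild type (log2 difference -2.88, SE 0.07, adjusted p = 1.56e-39), and gave 80.8, 78.9 and 85.7 in ap1-15 (log2 difference -2.36, SE 0.07, adjusted p = 1.18e-35). AT3G48460 gave 130.1, 117 and 130.1 in ap2-6 and 276, 249 and 239 in ap1-15, against 653, 732 and 566 in the wild type. AT5G55720 gave 64.2, 74.2 and 71.4 in ap2-6 and 125, 132 and 108 in ap1-15, against 361, 396 and 426 in the wild type, called in both. In lfy-12 the same gene was not called. A test between mutants was not run.

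AT1G32780 was the member that kept its signal in ap1-15. It gave 158, 156 and 151 in ap1-15, against 138, 149 and 126 in the wild type, a mean 1.13 times as high (log2 difference 0.16, SE 0.11, adjusted p = 0.254). The ap1-15 arrays lay above all wild-type arrays, by an amount that did not pass the test. In ap2-6 it gave 66.2, 60.7 and 59.7 (log2 difference -1.02, SE 0.11, adjusted p = 8.39e-11) and in lfy-12 30.4, 28.6 and 23.4 (log2 difference -1.94, SE 0.11, adjusted p = 1.03e-21), both called lower. The other members not called lower in ap1-15 were 257173_at (-0.89), 251898_at (-0.66), 258399_at (-0.40) and AT5G02420 (-0.95). In ap2-6 they were AT5G16240 (-0.93), 258399_at (-0.71), AT5G15780 (-0.41) and 249065_at (-0.80).

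The members were set beside all 294 probe sets called highest in stage 12 petals. The 16 members among them are 5.44% of these and 64% of the members. Of the 294, 229 had a wild-type flower mean of at least 50, and of these 40 were at most 0.5 times the wild type in ap3-6, 27 in ufo-1 and 21 in both, while 214 were at 0.9 times or more in ag-12. The median ratios over these 229 were 0.768 in ap3-6, 0.751 in ufo-1 and 1.36 in ag-12. Most petal-enriched transcripts thus kept over 0.5 of their flower signal in ap3-6 and ufo-1. The organ arrays did not choose the members, but the same organ contrasts defined the 294 probe sets. In these contrasts the 16 members had a median of 3.16 (log2) for petals minus sepals, against 1.94 in the other 278. The medians were 2.44 against 2.07 for petals minus stamens, and 3.77 against 1.76 for petals minus carpels. The members needed a wild-type mean of at least 50, which only 229 of the 294 reached. How much of the larger medians comes from the selection was not tested. These differences between lists were not tested.

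In the other mutants the 16 members also had the lower medians. They were -1.12 against -0.27 in the other 278 in lfy-12, with 9 of the members called lower and 35 (12.6%) of the others. In ap1-15 the medians were -1.46 and -0.36, with 14 members and 40 (14.4%) of the others lower, and in ap2-6 -1.74 and -0.42, with 13 and 44 (15.8%). In clv3-7 they were -0.16 and -0.06, with 0 and 0 called lower. These mutant comparisons use the wild-type stage 12 arrays that also chose the members. Members also needed a wild-type mean of at least 50, which 229 of the 294 petal-enriched probe sets reached. How much of the lower medians comes from the selection was not tested. In stage 15 petals against stage 12 petals, 10 members and 167 (60.1%) of the others were called lower, with medians of -2.11 and -1.57.

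Few genes of the pathway lists have a probe set that pairs with 1 gene, and only AT5G33370 is a member. Of 2 other cuticle genes tested, AT4G24140, which encodes a BODYGUARD-like protein, was petal-enriched at stage 12 and called higher in ag-12 (1.03, a log2 difference from the wild type), with -0.93 in ap3-6 and -0.47 in ufo-1, not called. SHN3, a regulator of cuticle genes, was not called in any of these mutants. Of 4 flavonoid genes, CHIL, an enhancer of chalcone formation, was petal-enriched and called lower in ap3-6 (-1.01), with -0.83 in ufo-1, not called. Of 3 genes of floral volatiles, CYP71B31 was petal-enriched, and its mean lay below the floor in the wild-type flowers and in all 3 mutants, so a loss could not be measured. The terpene synthase gene AT3G25810 was called lower in ap3-6, ufo-1 and ag-12, and AT5G44630, another, in ag-12. The wild-type mean of AT3G25810 was 29.5, near the floor, and its means in these mutants lay below the floor.

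Of 8 genes of petal growth, BPEp, the petal form of a transcription factor that limits cell size, was called lower in ap3-6 (-1.94) and ufo-1 (-1.32) and not in ag-12 (-0.47), and at stage 12 its petals exceeded sepals by 2.82 and carpels by 3.85, and stamens by 0.02 (log2 differences). The expansin gene EXPA8 was petal-enriched and lower in ufo-1 (-1.21), with -0.33 in ap3-6. EXPB3 was higher in ag-12 (1.15) and SPT higher in ap3-6 (1.05). The other 4, RBE, JAG, PTL and ROXY1, were not called in these mutants. Their wild-type flower means lay below the floor, so a loss could not be measured. The jasmonate list has no gene with such a probe set.

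Of the other cell types, 6 of 6 pollen genes were called lower in ap3-6, ufo-1 and ag-12, ANX1 from a wild-type mean below the floor. Of 4 tapetum genes, 3 were lower in ap3-6 and 3 in ag-12, and 1, AT5G07230, was called higher in ufo-1 on means below the floor in both ufo-1 and the wild type. The other tapetum genes were not called in ufo-1, with log2 differences of -0.34 for ATA27, -0.46 for AMS and 0.92 for SHT. The mean of ATA27 was 732 in ufo-1, against 929 in the wild type and 0.447 in ap3-6. Of 5 carpel and ovule genes, 3 were lower in ag-12 and 1 higher in ap3-6, and neither of 2 green tissue genes was called. Only the IQD and 4CL families were counted by gene symbol over the array. IQD19 was the 1 member among 11 IQD genes with a probe set, and 4CL8 is the one 4CL gene with a probe set of 1 gene in the annotation used. The named members lie on all 5 chromosomes, 8 of the 16 on chromosome 5. Of 15 adjacent genes with a named probe set, beside 11 members, 0 were members and 0 petal-enriched at stage 12, as are 1.67% of probe sets tested. Of the 15, 3 were called lower in both ap3-6 and ufo-1. Of 17646 probe sets tested, 1095 were called lower in ap3-6 and 748 in ufo-1, and the number called lower in both was not counted. The neighbours AT1G75870 and AT5G02570 were low in ag-12 too, at means of 2.56 and 7.75, against 44.6 and 84.3 in the wild type. The neighbour AT3G48450 had a mean of 2.57 in ag-12, against 22.1 in the wild type, which is itself below the floor. Of the 12 above the floor in a stage 12 organ, 4 had their highest mean in petals, as did 18.8% of all probe sets, dim ones included. The nearest members to each other, AT5G02420 and AT5G02580, have 16 protein-coding genes between them in the TAIR10.1 annotation.

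Outside the floral organs, 12 members lay below the floor in all arrays of mature pollen and 9 above it in all. Probe set 257173_at gave 2954, 1728 and 1836 in pollen, AT5G16240 gave 284, 235 and 209 and AT1G32780 gave 141, 136 and 145. In stage 15 pedicels 9 were below the floor in all arrays and 12 above it. AT5G48900 gave 747, 668 and 733 there, 257173_at 2406, 2358 and 2522 and AT5G33370 408, 372 and 353. In the long-day flowers of unstated stage, whose light and temperature also differ, AT5G48900 gave 149, 139 and 158 and AT5G33370 1864, 1912 and 1990.5. These groups entered no comparison.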

How the data were processed

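RNA of 66 samples in 22 groups of 3 was measured on ATH1 arrays. The deposited values are linear signal intensity per probe set, and the submitters' processing notes name MAS5 for them, with a version not given in the sources used here. Of 22810 probe sets, 64 controls were left out. Genes were named through the platform annotation, where 13513 probe sets have 1 gene, 503 have several and 8730 have none. Groups came from the labels.

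Members were chosen from group means. The members and the lists were chosen with earlier results of these data known. Differences were tested in limma 3.58.1 (R 4.3.3) on log2(signal + 11.31), with 1 mean per group over all 66 arrays, eBayes with trend, and Benjamini-Hochberg adjustment over 17646 probe sets; 5100 dim ones were left out. Where every array of a group lay at or below the floor of 22.61, "at least N-fold" divides the mean of the brighter group by that floor. On simulated data for petals above each other organ (17646 probe sets), 100% of 3-fold changes were recovered with 0 false calls. Alternatives were other pseudocounts, no filter, quantile and 75th percentile scaling, fewer arrays in the fit, a robust fit, a replicate block, each array left out, and other limits.

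Named genes were the brightest members at stage 12, members on a list, those with the largest organ, stage or mutant differences, those beside each limit, and families with several members. Probe sets without a gene, and list genes outside the set, were picked after their values were seen.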

Additional observations from a re-analysis of the deposited data

Results flagged for a closer look

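In 17 members the change from stage 12 to stage 15 differed between petals and stamens, in a limma test of that difference, which 23.5% of all probe sets tested also passed. Values are the petal change minus the stamen change on the log2(signal + 11.31) scale. Among the lipase genes the difference was -2.87 for AT3G48460, -1.84 for AT2G42990 and -1.41 for AT1G75880. Among the genes of pectin metabolism it was -2.41 for AT5G48900, -2.34 for AT5G55720 and -1.20 for AT1G70720. It was -2.02 for the desaturase gene AT5G16240, -2.41 for IQD19, -2.73 for 4CL8, -1.40 for AT1G11850 and -1.34 for AT5G15780. Of the probe sets without a named gene, it was -2.70 for 259429_at, -2.79 for 260241_at, -1.03 for 262595_at, -2.70 for 258399_at and -1.73 for 249065_at. AT5G02580 had a difference of the other sign, 1.34. AT5G55720, 260241_at and 262595_at lay below the floor in both organs at stage 15, so the size of their differences rests on values below the floor.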

How the results depend on the processing

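Over 322 called differences of members, 4178 values under other settings gave the same call in 4102 cases and lost it in 76, of which 38 came from leaving out an array and 28 from a pseudocount equal to the floor. None was reversed. With that pseudocount, 0 members were called higher at stage 10/11 than at stage 9 and 5 at stage 12 than at stage 10/11. Members called highest in stage 15 petals numbered 4 without a pseudocount and 4 with quantile normalization. With limits of 0.4 for ap3-6 and ufo-1 and 1.0 for ag-12 the set has 11 members, and with 0.6 and 0.8 it has 55. Of the 11, 7 were called highest in stage 12 petals, 7 higher in both petals and stamens, 4 lower in stage 15 petals, 3 in stage 15 stamens and 5 in stage 15 flowers. In lfy-12, ap1-15 and ap2-6, 10, 9 and 10 of the 11 were lower. These counts are over fewer members by construction.

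With 1 array left out at a time, the number of members lay between 22 and 25. Members called highest in stage 12 petals numbered 16 to 17, those higher in both petals and stamens 13 to 16, and those highest in stage 15 petals 2 to 2. In petals 13 to 13 were lower at stage 15, in stamens 10 to 10 lower and 3 to 3 higher, and in flowers 13 to 15 lower and 2 to 3 higher. At stage 12, 6 to 8 exceeded stage 10/11. At stage 10/11, 0 to 1 exceeded stage 9, and the 0 came without replicate C2 of stage 10/11. In lfy-12 16 to 17 were lower, in ap1-15 18 to 21, in ap2-6 20 to 21 and in clv3-7 0 to 0.

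With the replicate letter as a block, 16 members were called highest in stage 12 petals and 17, 20 and 21 lower in lfy-12, ap1-15 and ap2-6, the same counts as without it. Departures of arrays from their group means correlated at -0.0974 to 0.116 between same-letter arrays of compared groups. Over all pairs of groups the median was 0.000787 for the same letter and 0.00031 for other letters. The letters were thus not taken to pair samples. No paired analysis was possible between stages 10/11 and 12 because they share no letters. The deposited signals give no probe-level background, so precision at low signal is limited by the floor and by 3 arrays a group.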

Other observations

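Members with small and with large decreases in lfy-12 were set beside their wild-type stage 9 levels, as values only. AT5G55720 gave 303, 272 and 274 in lfy-12, against 396, 380.1 and 369.7 in stage 9 flowers. Probe set 260241_at gave 273, 275 and 266 in lfy-12, against 334, 323 and 347 in stage 9 flowers. Neither was called lower in lfy-12 than in wild-type flowers of stage 12. Probe set 246072_at gave 79.2, 67.3 and 67.3 in lfy-12, against 917, 799 and 973 in stage 9 flowers, and 251898_at gave 58.2, 54.2 and 63.3 in lfy-12, against 617, 622 and 627 in stage 9 flowers. For these picked members a high stage 9 level stood beside both small and large decreases in lfy-12. AT5G33370, AT1G11850, AT2G42990, 259429_at and AT5G15780, also not called lower, had stage 9 means of 1993, 779, 743, 374 and 85.1. Their stage 12 means were 2298, 721, 569, 513 and 92.5. The remaining member not called, 258399_at, had 73.2 at stage 9 and 124 at stage 12. Among members called lower, 246072_at and 251898_at had stage 9 means of 896 and 622, near their stage 12 means of 986 and 646. Probe set 267144_at, also called lower, had 411 at stage 9 and 612 at stage 12, in relative terms nearer than 258399_at. No test was run on this pattern, which was seen in the data first.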
